A study of Gallus gallus with 8 samples.

Results

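The genes described here, counted in chicken trachea, act in antigen presentation, except a gene with the symbol MICA, which is given no role. Those of the class I pathway are the heavy chains BF1 and BF2, their partner B2M and the peptide transporter subunits TAP1 and TAP2. Those of class II are the beta chains BLB1 and BLB2 and the invariant chain CD74. The rows of the mRNA table whose gene symbol equals 1 of these 9 names were taken. Of the 26296 genes in the table, 8 matched. BLB2 is not among the symbols of the table, but a row under the identifier LOC101747454 carries the NCBI gene ID that RefSeq pairs with BLB2, and it is given here as BLB2. All 9 rows had at least 20 counts in 1 library, the minimum for a gene to be called measured, and MICA reached it through the control library alone.

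Chickens (Gallus gallus) were kept to an age of 42 days in chambers with or without hydrogen sulfide (H2S), an irritant gas. In the exposed chamber the gas was held between 3.5 and 4.5 mg/kg during weeks 0 to 3 and between 19.5 and 20.5 mg/kg during weeks 4 to 6, and the control chamber received no added gas. Gene counts came from the trachea, in 1 H2S library with a total of 20839798 counts and 1 control library with 18875586, and the labels give both the replicate number 3. With 1 library per condition no difference has a replicate check, and no test between conditions was made. The labels name neither the breed nor the MHC haplotype of the birds, and they do not say whether 1 bird or several went into a library.

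MHC class I molecules display peptides from inside the cell to cytotoxic T cells. Their heavy chain pairs with beta-2 microglobulin, encoded by B2M, and is loaded in the endoplasmic reticulum with peptides pumped in by the TAP transporter. MHC class II molecules display peptides from the endosomes of antigen-presenting cells, such as B cells, macrophages and dendritic cells, to helper T cells, and CD74 occupies their groove until they reach the endosome. In the chicken the class I heavy chain, TAP and class II beta chain genes lie in a compact B locus. There the TAP genes stand between BF1 and BF2, and BF2 is the more strongly expressed of the class I genes in many haplotypes. Interferons raise the class I pathway in most cells.

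Summed class I heavy chain counts were far lower in the H2S library, mostly those of BF2, and B2M was lower with them. BF1, the TAP genes and the class II genes differed less than BF2 and B2M. BLB1 had the only ratio above 1 among the 9 genes, and its 95% interval of 0.984 to 1.26 includes 1. Values below are counts, levels after TMM scaling to a common library size (CPM), and ratios of the H2S over the control library with 95% exact intervals. The intervals cover counting error between these 2 libraries and not the variation between birds. Counts were not divided by transcript length, so levels are compared within a gene only. In tissue RNA, fewer cells of a type and less RNA per cell cannot be told apart.

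**Figure D1:**
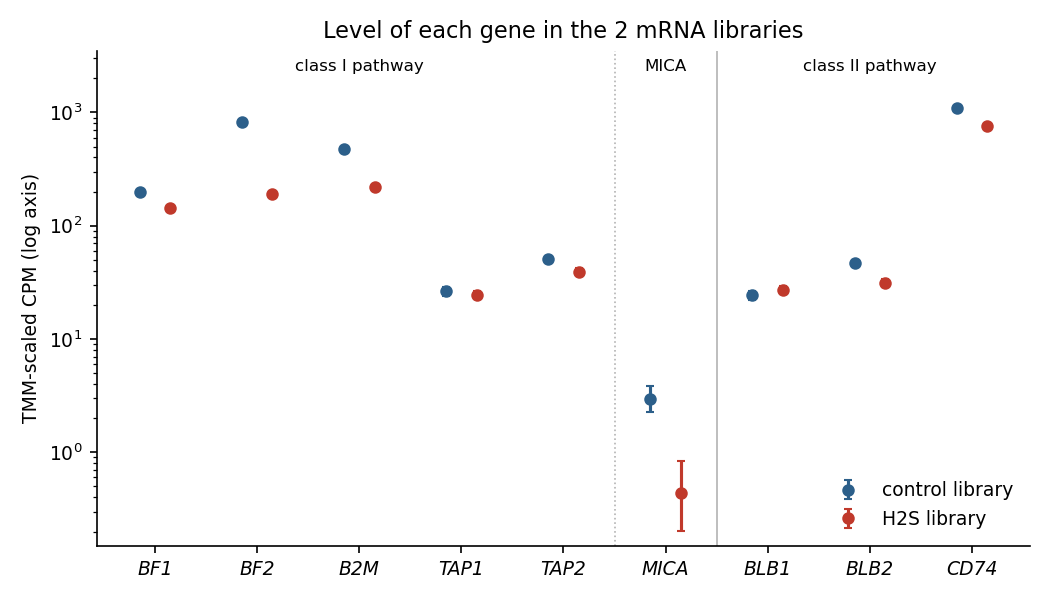
TMM-scaled CPM of each gene (log axis) in the control library (blue) and the H2S library (red), 1 library each, with exact 95% Poisson intervals that are narrower than most points. BF2 is at 815 CPM in the control and 192 CPM in the H2S library and B2M at 474 and 219 CPM, while TAP1 and BLB1 stay close together in the 2 libraries.

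BF2, the heavy chain that is usually dominant, was counted 3936 times with H2S and 15657 times in the control, or 192 against 815 CPM. Its ratio was 0.236 (0.228 to 0.244), so it was 4.24-fold lower (4.10 to 4.39) with H2S. Among the 5031 genes with at least 1000 counts in 1 library, 8 had a lower ratio than BF2. BF1, the other heavy chain, had 2922 against 3772 counts and 143 against 196 CPM. The BF1 ratio was 0.727 (0.692 to 0.763), which 13.1% of the 15268 measured genes lay below. Of the 5031 genes with high counts, 309 lay below BF1.

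Because BF1 and BF2 are almost the same sequence, a read may be credited to either, and their sum does not depend on which. The sum could still change if reads that match more than 1 gene were left out, which is not stated. The MHC haplotypes behind the 2 libraries are not named either, and their part in the BF1 and BF2 counts was not tested. Summed, they had 6858 counts in the H2S library against 19429 in the control library, or 335 against 1012 CPM. The sum was 3.02-fold lower (2.94 to 3.11), and 14 of the 5031 genes with high counts had a lower ratio. BF2 held 80.6% of the summed counts in the control library (exact interval 80.0 to 81.1) and 57.4% in the H2S library (56.2 to 58.6). The quotient of BF2 to BF1 counts, which needs no library scaling, was 4.15 in the control and 1.35 in the H2S library, a 3.08-fold difference (2.90 to 3.27). The balance between these genes therefore differed between the libraries as well as their sum, within the limit that reads of either gene can be assigned to the other.

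**Figure D2:**
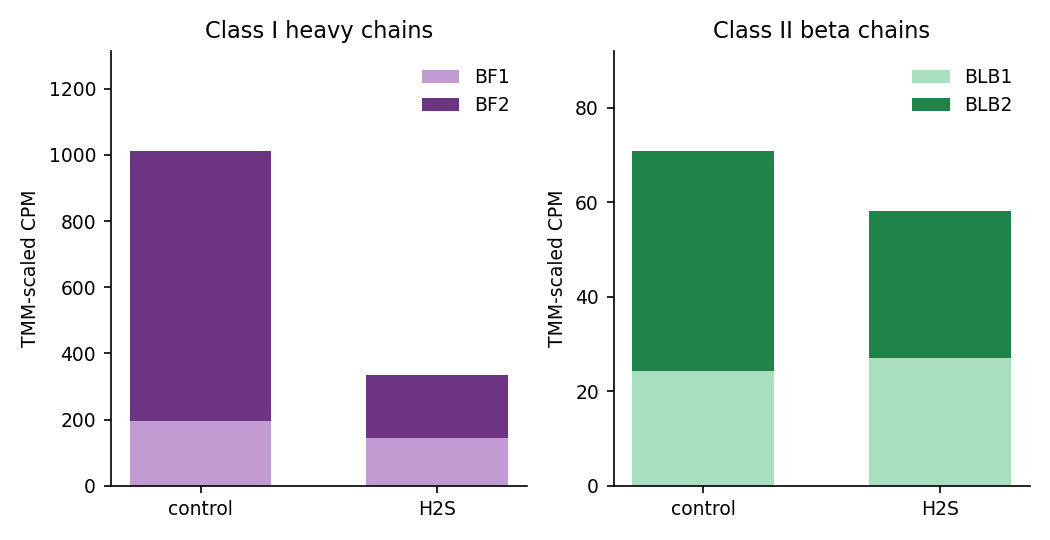
TMM-scaled CPM of the paired class I heavy chain genes (left) and class II beta chain genes (right), stacked, in 1 control and 1 H2S library. The class I stack is 1012 CPM in the control and 335 CPM in the H2S library, and most of the gap lies in the BF2 part, while the class II stacks are 70.9 and 58.3 CPM.

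B2M, the light chain that every class I molecule needs, lies outside the B locus. It had 4488 counts with H2S against 9108 in the control, or 219 against 474 CPM. It was 2.16-fold lower (2.09 to 2.24), with 34 of the 5031 high-count genes below it. Its quotient to the summed heavy chains was 0.654 in the H2S and 0.469 in the control library, so the light chain was lower by less than the heavy chains.

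The transporter genes TAP1 and TAP2 stood closer to 1. TAP1 had 502 against 505 counts, a ratio of 0.932, and with an interval of 0.822 to 1.06 this depth could not show a difference. TAP2 had 804 against 979 counts, a ratio of 0.770 (0.701 to 0.846). These genes lie between BF1 and BF2 in the RefSeq gene order, and the quotient of their summed counts to those of the heavy chains was 2.49-fold higher (2.30 to 2.70) in the H2S library. All 5 class I genes had ratios below 1, as did 7652 of the 15268 measured genes. Of the 5, BF2 and B2M were at least 2-fold lower. By the same rule 3.71% of the measured genes and 0.894% of the genes with at least 1000 counts were at least 2-fold lower.

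**Figure D3:**
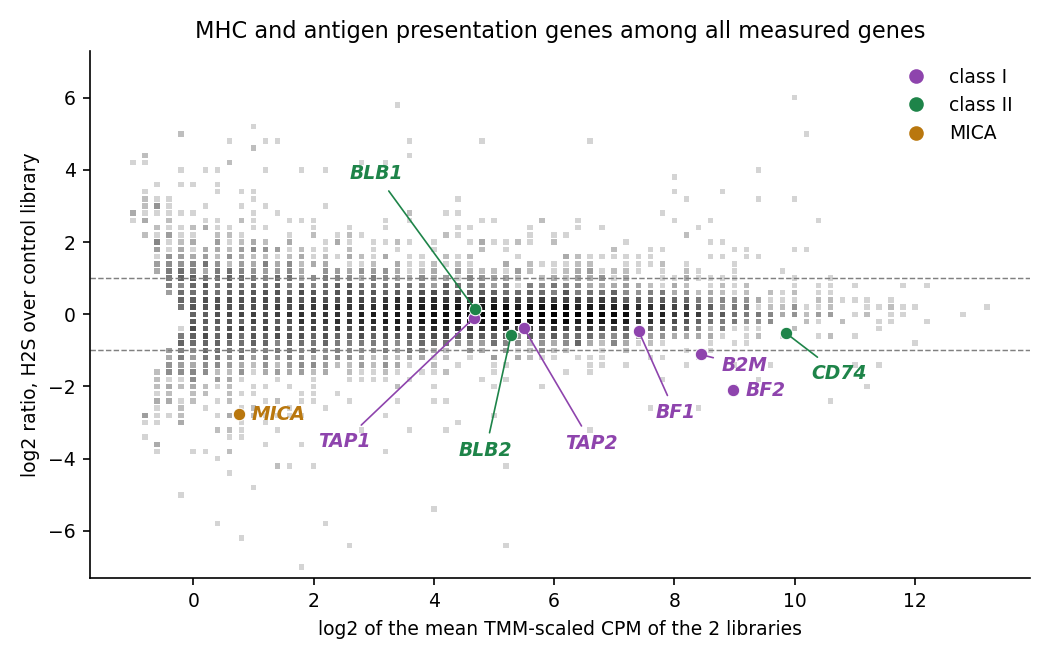
Log2 ratio of the H2S over the control library against the log2 mean TMM-scaled CPM, with the 15268 measured genes as grey squares (darker where more genes fall, values beyond 7 drawn at 7) and the 9 described genes in colour. Dashed lines mark 2-fold. BF2 at -2.08 and B2M at -1.11 lie below the dense band of genes of similar level, and the other class I and class II genes lie within it or at its edge.

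Class II genes were nearer to 1 than BF2 and B2M. CD74, the invariant chain that guides class II molecules to the endosome, had 15591 counts in the H2S and 20962 in the control library, or 761 against 1091 CPM. The CD74 ratio was 0.698 (0.683 to 0.712), and 11.1% of measured genes were lower. BLB2 had 640 against 896 counts, a ratio of 0.670 (0.604 to 0.742). BLB1 went the other way with 553 against 465 counts, a ratio of 1.12 whose interval of 0.984 to 1.26 includes 1. None of the 3 class II genes was 2-fold lower or higher, where 4.71% of all measured genes were at least 2-fold higher and 3.71% lower.

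The beta chains BLB1 and BLB2 resemble each other too. Their sum was 1193 against 1361 counts, or 58.3 against 70.9 CPM, a ratio of 0.822 (0.760 to 0.889). BLB2 took 65.8% of that sum in the control library (63.2 to 68.4) and 53.6% in the H2S library (50.8 to 56.5). For both gene pairs the H2S library therefore had the smaller share from the second gene.

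Class I and class II were set against each other by the quotient of beta chain to heavy chain counts, which no library scaling can move. BLB1 and BLB2 together had 0.174 counts per count of BF1 and BF2 with H2S and 0.0700 in the control. This quotient was 2.48-fold higher (2.28 to 2.70) with H2S. Over all class II and all class I genes it was 1.78-fold higher (1.73 to 1.84). There CD74 supplied 15591 of the 16784 class II counts with H2S and 20962 of the 22323 in the control. The beta chain quotient rested on BF2: against BF2 alone it was 3.49-fold higher (3.20 to 3.80), and against BF1 alone 1.13-fold (1.03 to 1.24). Gene by gene the classes were alike at their centre, with a median log2 ratio of -0.46 over the 5 class I genes and -0.52 over the 3 class II genes, beside 0.00 over all measured genes. The contrast thus lay in BF2 and B2M and not in each class I gene.

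MICA is named after a human class I-like ligand of the NKG2D receptor of natural killer cells. The RefSeq table used for names has no chicken gene under this symbol, so no role is given to it here. It had 9 counts in the H2S and 57 in the control library, or 0.439 against 2.97 CPM, and was 6.75-fold lower (3.32 to 15.5). Counts this small make it the least certain of the 9 genes.

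In the RefSeq order of the B locus, the low ratios did not form 1 continuous block. BLB1 at 1.12 was followed by TAPBP, BLB2 and BRD2, with ratios of 0.596 (0.540 to 0.658), 0.670 and 1.58 (1.49 to 1.67). TAPBP encodes tapasin, which bridges class I molecules to the TAP transporter, and BRD2 encodes a bromodomain chromatin reader. DMA and DMB2, which encode chains of the peptide exchange factor of class II, came next at 0.788 (0.617 to 1.01) and 0.779 (0.639 to 0.948). BF1, TAP1, TAP2 and BF2 then followed as immediate neighbours at 0.727, 0.932, 0.770 and 0.236. The complement gene C4 beyond BF2 had a ratio of 1.24 (0.992 to 1.56). DMB1 had 8 counts in each library, too few to compare.

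**Figure D4:**
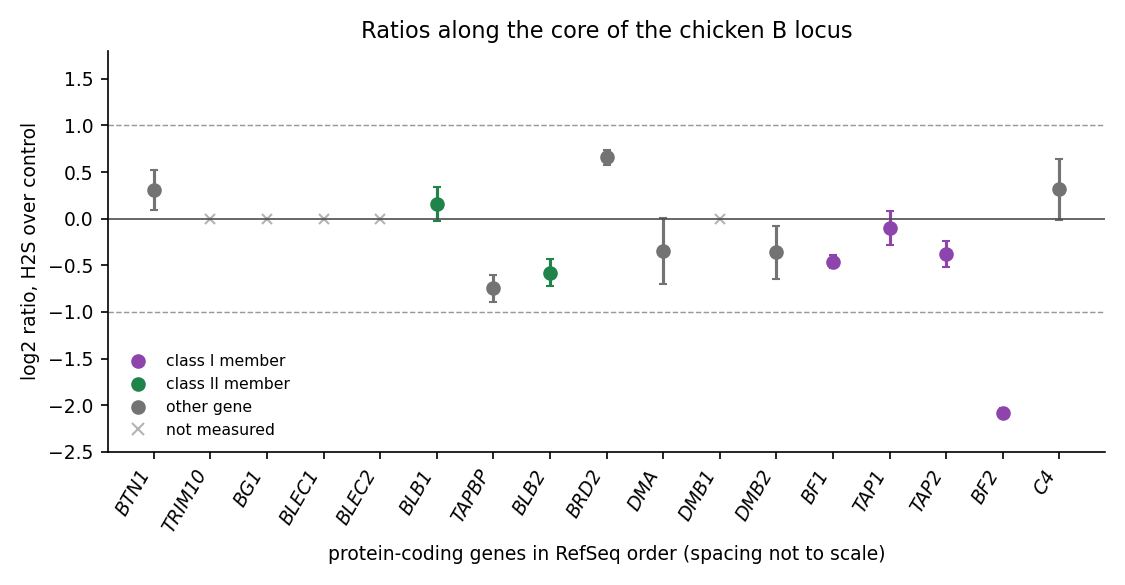
Log2 ratio of the H2S over the control library for protein-coding genes of the B locus core, in RefSeq order with equal spacing, with 95% exact counting intervals. Purple points are class I genes, green points class II genes, grey points other genes, and crosses at 0 mark genes that were not measured. BF2 at -2.08 stands 2 places from TAP1 at -0.10, and BRD2 at 0.66 lies between BLB2 at -0.58 and DMA at -0.34.

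Across a wider list of B locus neighbours, 3 of 18 measured genes were at least 2-fold higher and 1 was at least 2-fold lower. Among all measured genes these shares were 4.71% and 3.71%. The list had 9 ratios below 1 and a median log2 ratio of 0.08. The highest were TRIM39.2 at 3.17 (2.38 to 4.25) and TRIM27.1 at 2.46 (1.05 to 6.43). TRIM27.1 had 21 against 8 counts and reached the minimum through the H2S library alone. KIFC1, a kinesin of the mitotic spindle, was lowest at 0.368 (0.279 to 0.480), followed by TAPBP.

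The machinery that makes and loads class I peptides lay closer to 1 than BF2 and B2M, as most measured genes did. In the peptide loading list 8 of 8 measured genes were within 2-fold, with a median log2 ratio of -0.12, as were 13983 of the 15268 measured genes. TAPBP at 0.596 and LNPEP, a peptidase of endosomes, at 0.782 were lowest. ERAP1, the peptidase that trims class I peptides in the endoplasmic reticulum, had a ratio of 1.09 (1.05 to 1.14), and the chaperone HSPA5 was highest at 1.27. Proteasome genes, whose products cut the peptides, had a median log2 ratio of 0.14 with 31 of 31 within 2-fold, a share near that of all measured genes. They ran from POMP, the assembly factor, at 0.711 and PSMA5 at 0.800 to PSMA7 at 1.32 and PSMB5 at 1.38.

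Other measured genes of the class II pathway lay nearer to 1 than CD74 and BLB2, except CTSS. All 12 measured genes had ratios below 1, with a median log2 ratio of -0.35, whereas 7652 of the 15268 measured genes were below 1. HLA-DRA, the symbol of the class II alpha chain in the table, had 598 against 715 counts, a ratio of 0.784 (0.702 to 0.876). CTSS, the cathepsin that removes the invariant chain, had the lowest ratio at 0.610 (0.577 to 0.646), and LGMN, another endosomal protease, was at 0.701. The ratios closest to 1 were those of CTSB at 0.967 and of the thiol reductase IFI30 at 0.987 (0.879 to 1.11).

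A list of MHC regulators, made of transcription factors and genes of interferon signalling, went both ways in the same library. In it 18 of 25 measured genes were above 1 and 7 below, where 7616 of the 15268 measured genes were above 1. The signalling genes include receptors, kinases and an inhibitor. NLRC5, the activator of class I genes in mammals, had 3101 against 1943 counts, a ratio of 1.497 (1.41 to 1.58). RFX5, a subunit of the factor that binds MHC promoters, had 280 against 133 counts, a ratio of 1.97 (1.60 to 2.45), and its partners RFXAP and RFXANK had ratios of 0.725 and 0.860. IRF1, an interferon-induced factor that acts on class I promoters, was at 2.01 (1.90 to 2.12). STAT2 at 3.63 and the feedback inhibitor SOCS1 at 7.40 were the highest of the list. The class II activator CIITA was looked for by symbol and is not among the symbols of the mRNA table. Over the whole regulator list 4 of 25 measured genes were at least 2-fold higher and 0 lower, with a median log2 ratio of 0.15. Among all measured genes 4.71% were at least 2-fold higher and 3.71% lower. IFNG, the main inducer of class II, was near the limit of detection, with 18 counts against 15 and a ratio of 1.13 (0.536 to 2.40), and no difference could be seen at that depth.

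Interferon-stimulated genes, among which class I genes are usually counted, stood at the other end. Of 32 measured genes in the list, 29 were at least 2-fold higher and 0 were lower, with a median log2 ratio of 2.27. Among all measured genes 4.71% were at least 2-fold higher and 3.71% lower. The list leaves out the class I genes and was drawn up with earlier results of these data known, so the contrast is descriptive only. Ratios of 64.6 for RSAD2, 32.9 for IFIT5, 1.34 for LY6E and 1.09 for UBA7 marked the ends of this list. None of its 32 genes had a ratio below 1, while all 5 class I genes did, with an interval for TAP1 that includes 1. Among all measured genes 7652 of 15268 were below 1. Ligands and receptors that antigen-presenting cells use beside MHC were mixed. CD274, an inhibitory ligand also known as PD-L1, was at 2.61 and ICOSLG at 1.66, against CD80 at 0.566 and TNFRSF9 at 0.680. In that list 1 of 9 genes was at least 2-fold higher and 0 were lower, with a median log2 ratio of 0.37.

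**Figure D5:**
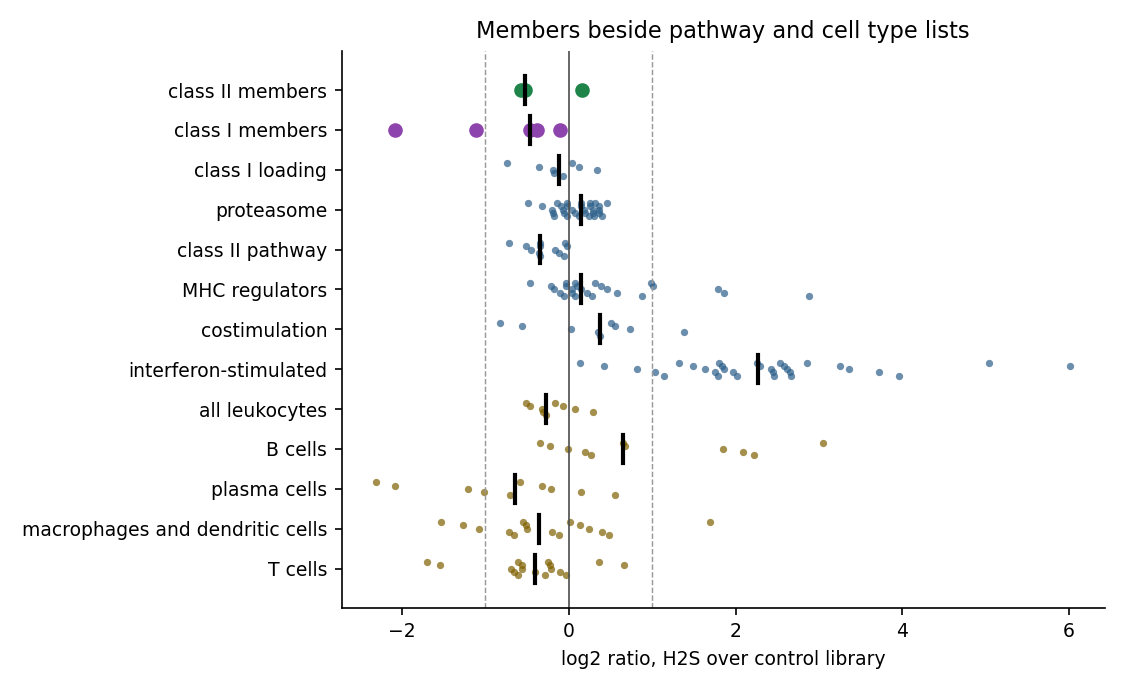
Log2 ratio of the H2S over the control library for each measured gene (points) of the class I and class II members, 6 pathway lists (blue) and 5 lists of immune cell markers (brown), with black bars at the medians and dashed lines at 2-fold. Interferon-stimulated genes centre at 2.27, whereas the class I and class II members centre at -0.46 and -0.52. BF2 lies at -2.08, close to the plasma cell gene IGLL1 at -2.09 and above IGJ at -2.31, while the plasma cell list centres at -0.65.

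Markers of the cells that carry MHC molecules also differed between the libraries. Markers of leukocytes in general had 7 of 9 ratios below 1, where 7652 of the 15268 measured genes were below 1. They summed to 860 CPM in the H2S and 976 CPM in the control library. PTPRC was at 1.06, ARHGDIB at 1.22, ITGB2 at 0.727 and CYBB at 0.703. Relative to the summed counts of these 9 markers BF2 was at 0.268 (0.257 to 0.279), B2M at 0.524 (0.503 to 0.547), BF1 at 0.825 (0.782 to 0.869) and CD74 at 0.792 (0.769 to 0.815). The same quotient for BLB1 and BLB2 together was 0.933, and its interval of 0.860 to 1.01 includes 1. Relative to this sum BF2, B2M, BF1 and CD74 were all lower. Taken singly, CYBB at 0.703 and ITGB2 at 0.727 lay near CD74 at 0.698 and BF1 at 0.727, and the other markers lay higher. The intervals leave out this spread between markers. The part of leukocyte number in the MHC differences was not tested.

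Of the plasma cell markers, the antibody genes IGJ and IGLL1 had ratios of 0.202 (0.198 to 0.206) and 0.235 (0.231 to 0.239), beside 0.236 for BF2, and the other markers had higher ratios. In this list 4 of 10 measured genes were at least 2-fold lower and 0 were higher, where 3.71% and 4.71% of all measured genes were. The median log2 ratio was -0.65, with sums of 1627 against 6728 CPM. POU2AF1 and MZB1 had ratios of 1.11 and 1.47. Markers of B cells, which carry class II, had 4 of 11 at least 2-fold higher and 0 lower, a median of 0.65 and sums of 356 against 262 CPM. VPREB3, with 88 against 10 counts and so measured through the H2S library alone, was highest at 8.25 and CXCR5 followed at 4.67, while BLK and BCL11A were at 0.784 and 0.852.

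Macrophage and dendritic cell markers had 10 of 16 ratios below 1, a median log2 ratio of -0.36 and sums of 375 against 441 CPM. Among all measured genes 7652 of 15268 were below 1, 3.71% were at least 2-fold lower and 4.71% at least 2-fold higher. FLT3, the growth factor receptor of dendritic cell precursors, was at 0.345 (0.267 to 0.440) and the scavenger receptor MARCO at 0.414, and 3 genes were at least 2-fold lower. LY86 at 1.40 and TIMD4 at 3.24 were the highest, and TIMD4 was the 1 gene at least 2-fold higher. T cell markers had 15 of 17 ratios below 1, a median of -0.41 and sums of 192 against 246 CPM. CTLA4 was at 0.307, against CD8B at 1.29. CD6, at 0.344 with 11 against 30 counts, was measured through the control library alone. None of the markers in these 5 immune lists that the table holds was at 0 in both libraries. The part of these cell types in the MHC differences was not tested.

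The tissue itself was recognisable in both libraries. Cartilage was represented by COL2A1, ciliated epithelium by FOXJ1 and striated muscle by ACTA1, with 198018, 2573 and 123665 counts in the H2S and 165713, 2772 and 67180 in the control library. Cartilage markers had a median log2 ratio of 0.46 over 11 genes, from COL9A1 at 1.11 and COL2A1 at 1.12 to ACAN at 1.70 and MATN3 at 2.63. Striated muscle markers had 0.60 over 9 genes, from MYH1B at 0.949 and MYBPC1 at 1.01 to TNNI2 at 1.86 and MYH1A at 3.49. Epithelial markers had -0.18 over 10 genes, from TP63 at 0.490 and DNAH5 at 0.701 to DNAH9 at 1.09 and KRT5 at 1.16. Smooth muscle and fibroblast markers had -0.07 over 12 genes, from COL1A1 at 0.839 and LUM at 0.849 to PDGFRB at 1.14 and MYH11 at 1.26. Among red blood cell markers 3 were measured, HBAA at 2.13, SLC4A1 at 1.91 and HBAD at 0.960, and the embryonic globin genes HBE and HBZ were at 0. Their part in the MHC differences was not tested either.

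Genes with a pattern most like the heavy chain sum were sought among 328 other named genes whose summed level lay within 2-fold of it. The nearest log2 ratios were those of C15ORF43 at -1.36, OLFM4, a secreted glycoprotein of mucosal epithelium and granulocytes, at -1.84 and NR4A3, an early-response nuclear receptor, at -1.07, beside -1.59 for BF1 and BF2 summed. For the beta chain sum at -0.28 there were 4161 such genes, and SGPL1, ACSL3 and BLOC1S5 matched it to 2 decimals. Over 2 libraries such likeness rests on a single ratio.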

How the data were processed

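The deposited mRNA table holds raw counts per gene for 1 H2S and 1 control trachea library. The submitters' processing notes name HISAT2 as the aligner. Neither the labels nor the table state its version, a genome build, an annotation, a counting tool, strandedness or how reads that match more than 1 gene were handled. The 6 small RNA libraries of the series hold no gene described here and were not used.

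Counts were divided by effective library sizes from TMM scaling over all genes (edgeR 4.0.16, R 4.3.3). Ratios carry Clopper-Pearson intervals, exact given the summed count of the gene, and quotients of 2 genes carry exact conditional odds ratio intervals (scipy 1.17.1, 95%). A gene was called measured from 20 counts in 1 library, and a ratio of at least 2 or at most 0.5 was counted. A gene with at most 3 counts in both libraries was given no ratio. The calculation was tested on simulated counts. DESeq2 1.42.0 size factors, total counts and other scalings were alternatives.

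RefSeq (GRCg7b) served for names and gene order only, without coordinates, since the files do not state their build.

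All 9 genes are named. Of each list the 2 highest and 2 lowest measured genes are named, with 12 loading factors and regulators chosen in advance where present, and the 3 genes nearest in ratio to each summed pair. Some genes that this rule takes are not reported here. BRD2, C4 and other genes outside this rule were picked for their position or after their values were seen. The members and lists were chosen with earlier results of these data known.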

Additional observations from a re-analysis of the deposited data

How the results depend on the processing

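With 1 library per condition no library could be left out. No paired analysis was possible because the groups compared share 1 replicate number. Between scalings, the median log2 ratio of all measured genes shifted by -0.05 to 0.01 against TMM. Shifts this small could not carry any of the 9 genes across 1, and each kept its side under all 6 scalings. The ranges were 0.228 to 0.238 for BF2, 0.446 to 0.466 for B2M, 0.900 to 0.941 for TAP1 and 1.08 to 1.13 for BLB1. Under every scaling the counting intervals of TAP1 and BLB1 included 1, so their side is not established. The heavy chain sum moved beyond its counting interval with total counts, to 0.320, as did CD74, to 0.674. The counts of 2 class I and 0 class II genes at least 2-fold lower did not move with the scaling or with a fold of 1.5, each varied alone. BLB2 at 0.670 fell just short of a fold of 1.5 under TMM, and with total counts it was at 0.647, past that fold. Dropping the filter could not move these counts, since all 9 genes had at least 20 counts. A filter of 1000 counts could not either, since it removes only TAP1, TAP2, BLB1 and BLB2 from the 2 classes, and none of these was 2-fold lower.

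The choice of genes mattered more. The quotient of class II to class I counts was 2.48-fold higher with H2S for the summed pairs, 1.78-fold over all members, 3.49-fold against BF2 alone and 1.13-fold against BF1 alone. Among alternatives added after the data were seen, BLB1 alone gave 1.12 in place of 0.822 for the beta chain sum, and 3.37 for the quotient. The interval of BLB1 alone, 0.984 to 1.26, includes 1. Relative to summed leukocyte markers the heavy chain sum was at 0.376 and the beta chain sum at 0.933. Genes with few counts, such as MICA, DMB1 and IFNG, are limited by depth.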

Other observations

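The chicken has another MHC region, called Y, whose class I-like genes are separate from BF1 and BF2. They were examined after the values above were seen. By symbol or RefSeq gene ID 8 of them were in the table, none above 60 counts in a library, and 4 had at least 20 counts in 1 library. YF5 had 3 counts in the H2S and 41 in the control library, a ratio of 0.0686 (0.0136 to 0.215), and reached the minimum through the control library alone. MHCY10 went the other way with 49 against 26 counts, a ratio of 1.77 (1.08 to 2.96). MHCY36 had 41 against 60 counts, a ratio of 0.641 (0.420 to 0.969), and MHCY11 had 30 in each. The Y region also holds C-type lectin-like genes, of which YLEC9 had 66 against 6 counts, a ratio of 10.3 (4.50 to 29.1), and YLEC8 30 against 13. Both reached the minimum through the H2S library alone. These families are made of similar copies, so the division of reads among them is uncertain.

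The CD1 genes, which encode class I-like molecules that present lipids and lie near the B locus, were CD1B with 75 against 87 counts, a ratio of 0.808 (0.586 to 1.11), and CD1C with 78 against 47, a ratio of 1.56 (1.07 to 2.29).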
